A study of Homo sapiens with 79 samples.

Results

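The RNAs described here are the annotated small nucleolar and Cajal body RNAs in the gene table of a fRIP-Seq study of K562, an established human leukemia cell line. They were chosen by name and by measured level: rows with a symbol that begins with SNORA, SNORD or SCARNA and with at least 1 FPKM (fragments per kilobase of transcript and per M, or mega, mapped fragments) in at least 2 of the 79 libraries. The table held 30 rows with such a symbol, and 18 of them passed: 7 of 10 SNORA rows, 6 of 14 SNORD rows and 5 of 6 SCARNA rows. These 18 stood among 48453 rows in all, of which 25442 passed the same filter and were tested. Of the 12 rows left out, 11 stayed below 1 FPKM in every library and SNORD3B-1 reached it in 1 library, at 1.20 FPKM. At the other side of the limit, SNORA40 and SNORD64 reached 1 FPKM in 3 libraries each. The choice used the level in fRIP libraries as well as in inputs: 13 rows reached 1 FPKM in at least 2 inputs, and SNORA70D, SNORA40, SNORD3C, SNORD56 and SNORD64 did not, so that a high value in some fRIP was a condition for them to be described at all. Other snoRNAs, among them SNORD118, SNORD13, SNORA73A and SNORA73B, were not analysed here.

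In fRIP, living cells are cross-linked lightly with formaldehyde, here at 0.1% for 10 min, then lysed by sonication, and the RNA that comes down with an antibody against 1 protein is sequenced, as is the RNA of the lysate itself (input). All libraries came from untransfected K562 cells cross-linked in this way, and the fRIPs are named by the antibody used, with input carrying none. The 24 targets were 6 RNA-binding proteins (PABP, HUR, IMP1, HNRNPU, HNRNPH1 and ADAR) and 18 chromatin-associated proteins. The latter were the Polycomb proteins EZH2 and SUZ12, the MLL subunits RBBP5 and WDR5, the remodelers CHD1, CHD4 and CHD7, the acetyltransferases CBP and PCAF, the demethylases LSD1 and PHF8, the deacetylase HDAC1, the DNA methyltransferase DNMT1, CBX3 and its phosphorylated form, CTCF, the cohesin subunit STAG2 and the nucleoporin NUP98. Each protein had 3 libraries except EZH2 and STAG2, which had 2, and the 9 inputs came as 3 sets with 3 libraries in each. According to the study, replicates were separate lysates prepared on different dates, and STAG2 served as a target that recovers little RNA above background. No control immunoglobulin library was analysed here, and a fRIP measures RNA that is recovered with a protein, whether it touches that protein or another part of its complex.

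Small nucleolar RNAs are guides. Box C/D snoRNAs pair with ribosomal RNA and direct 2′-O-methylation by the methyltransferase FBL, and H/ACA snoRNAs direct pseudouridylation by the synthase DKC1. Most human snoRNAs are cut from introns of host genes, and a few, such as the U3 RNAs of the SNORD3 genes, act in cleavage of the ribosomal RNA precursor instead of in its modification. Small Cajal body RNAs (scaRNAs) use the same boxes but stay in Cajal bodies and guide modification of the spliceosomal snRNAs. SCARNA2 and SCARNA9 belong to the box C/D type, and SCARNA10 joins a box C/D and an H/ACA domain in 1 molecule.

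The rows did not all measure what their names say. In the annotation (GENCODE v44, placed on GRCh37), 15 of the 18 rows had a position and 3 (SNORA58, SNORA70D and SNORD56) had none. SCARNA2 was a transcript of 427 bases from its own gene. This transcript and those of SCARNA10 (248 bases) and SCARNA9 are annotated as long noncoding RNAs. Whether their values are those of the mature scaRNAs was not tested. SCARNA10 and SCARNA9 (353 bases, chr11:93454679-93455031) lay in introns of NCAPD2 and KIAA1731 (CEP295 in the newer annotation). SCARNA22 (125 bases, chr4:1976363-1976487) lay inside WHSC1 (now NSD2), and SNORA71A (134 bases, chr20:37055952-37056085) and SNORA71B lay inside SNHG17. The row named SCARNA15 was instead a retained intron of 4325 bases at chr15:83421636-83425960, and the row named SNORA67 was a long noncoding RNA of 12 exons and 4554 bases at chr17:7476144-7485342. The SNORA76 row was the host transcript SNHG25, the SNORA40 row a long noncoding RNA of 2227 bases that overlaps SSH1, and the SNORD64 row a transcript of 310 bases within SNHG14. The U3 rows (SNORD3A, SNORD3B-2, SNORD3C and SNORD3D) were transcripts of 581 to 791 bases, longer than mature U3, and that of SNORD3D is annotated as a long noncoding RNA. These rows are described under the names that the table gives them, and their values are not values of a mature snoRNA. The library kit did not keep the strand, so reads of a row could not be told apart from those of an overlapping gene on either strand.

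A stretch of 30 bases of SCARNA9 is shown with the 3′ ends of SCARNA22 and SNORA71A, short rows of the H/ACA type, because they show which of these stretches carry box C/D letters and which holds an ACA at the place usual for H/ACA RNAs. They are read 5′ to 3′ from the annotated GENCODE transcripts, on the plus strand except for SNORA71A on the minus strand. The SNORA71A row was matched by its gene identifier only. Its sequence here is that of the gene's annotated transcript, which has another identifier than the measured one. SCARNA9 is shown from base 291 to 320, SCARNA22 from base 96 to 125 and SNORA71A from base 105 to 134. Capitals mark the letters TGATGA (C box), CTGA (D box) and, in SCARNA22, the ACA that stands 3 bases before the 3′ end.
SCARNA9: TGATGAaaaggttttactaCTGAtctttgt
SCARNA22: acacaggacaccacggttttcagtACAaca
SNORA71A: atcccatccgaaccCTGAagctttcacaca

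TGATGA was found 2 times in SCARNA9 and 0 times in SCARNA22 and SNORA71A. It stood in 3.77% to 13.3% of annotated transcripts over windows of the same lengths. The D box letters stood 6 times in SCARNA9, 1 time in SCARNA22 and 2 times in SNORA71A, but also in 49.1% to 86.3% of transcripts. TGAG (the CAB box, a Cajal body signal) stood 6 times in SCARNA9, 1 time in SCARNA22 and 0 times in SNORA71A, and in 47.7% to 83.1% of transcripts. An ACA at that distance from the end stood in 2.45% of 254413 transcripts. The transcribed strand alone was searched, and CTGA and TGAG share letters where they run together as CTGAG. Of stretches of 31 bases, 7.52% of those of SCARNA9 occurred in another annotated gene, against 100% for SCARNA22 (all in NSD2) and SNORA71A (all in SNHG17). The 4 U3 rows shared 84.5% to 99.6% of theirs, mostly with one another, so that their separate values are uncertain.

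Depth, estimated from the FPKM that a single fragment is worth, was 11.9 to 30.4 M fragments in the inputs and 1.93 to 58.6 M in the fRIP libraries, with ADAR shallowest at 1.93 to 2.32 M. By the same estimate the median input library held 3860 fragments of SCARNA2, 295 of SCARNA9, 193 of SCARNA10, 166 of SNORA67, 99.4 of SCARNA15, 40.2 of SNORD3A and 21.7 of SNORA71A, but 6.98 of SNORA71B, 4.10 of SCARNA22 and 1.09 of SNORA58. All 9 markers of K562 cells were at 1 FPKM or more in every input. Of 7 markers of other cell types, 4 were below 1 FPKM in every input and 3 were not. The input sets differed in SCARNA2, with means of 271 ± 41.8 FPKM (SD, n = 3) in set 1, 819.6 ± 119 in set 2 and 926.5 ± 81.5 in set 3, and in SCARNA9, at 110.0 ± 24.0, 54.7 ± 8.32 and 61.6 ± 7.79. SCARNA10 was alike in the sets, at 99.2 ± 24.7, 100.6 ± 13.3 and 108.9 ± 24.5 FPKM. Each fRIP was therefore compared with all 9 inputs and, in addition, with the set whose mean matched the input value that the authors' table gives for that protein. The 24 comparisons share the inputs and are not independent of one another.

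A row was called enriched or depleted where its level in a fRIP differed from that in the 9 inputs by over 2-fold on the log2(FPKM + 1) scale at an adjusted p under 0.05 (limma over all 25442 rows). Where a fRIP replicate is left out below, the fRIP libraries of that number were left out for all proteins together. No fRIP library was left out alone, so a lost call cannot be put on 1 library. The SCARNA rows were called depleted in 39 of 120 pairs of a row and a fRIP (32.5%) and enriched in 16 (13.3%). Over all tested genes, 5.52% of 610608 such pairs were depleted and 6.90% enriched. The SNORA rows were depleted in 24 of 168 pairs (14.3%; 11 of the 24 were of SNORA58, at about 1 fragment per input, and 12 calls were made without replicate 2 or replicate 3) and enriched in 10 (5.95%), and the SNORD rows were depleted in 15 of 144 pairs (10.4%) and enriched in 5 (3.47%). Over the 18 rows this made 31 enriched and 78 depleted pairs of 432, or 7.18% and 18.1%. The rows that entered through the fRIP libraries alone held 5 of those 31 and 0 of those 78. Of 1299 other genes of at most 300 bases, 7.47% of pairs were depleted and 5.07% enriched. The median log2 difference from input was -0.53 over SCARNA pairs, -0.03 over SNORA pairs and -0.07 over SNORD pairs, while the median over all genes in a single fRIP lay between -0.17 (IMP1) and 0.34 (HNRNPH1).

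Against the matched input sets, where 6.24% of pairs over all genes were enriched and 5.61% depleted, the SCARNA rows gave 13 enriched and 38 depleted pairs, the SNORA rows 10 and 14, and the SNORD rows 4 and 14. Without any test, the libraries of a fRIP were all above the 9 inputs in 20 of the 120 SCARNA pairs and all below them in 44, while over all genes this held for 14.7% and 12.9% of pairs. For SNORA pairs the counts were 14 and 6, and for SNORD pairs 4 and 9. Of the 109 calls against all inputs, 79 were made alike against the matched set and 0 turned. The 9 rows with at least 10 fragments in the median input gave 25 enriched and 57 depleted pairs, of which the SCARNA rows among them gave 16 and 34. SCARNA2, SCARNA9 and SCARNA10 alone made 15 enriched and 34 depleted calls in 72 pairs (12 and 34 against the matched sets).

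**Figure D1:**
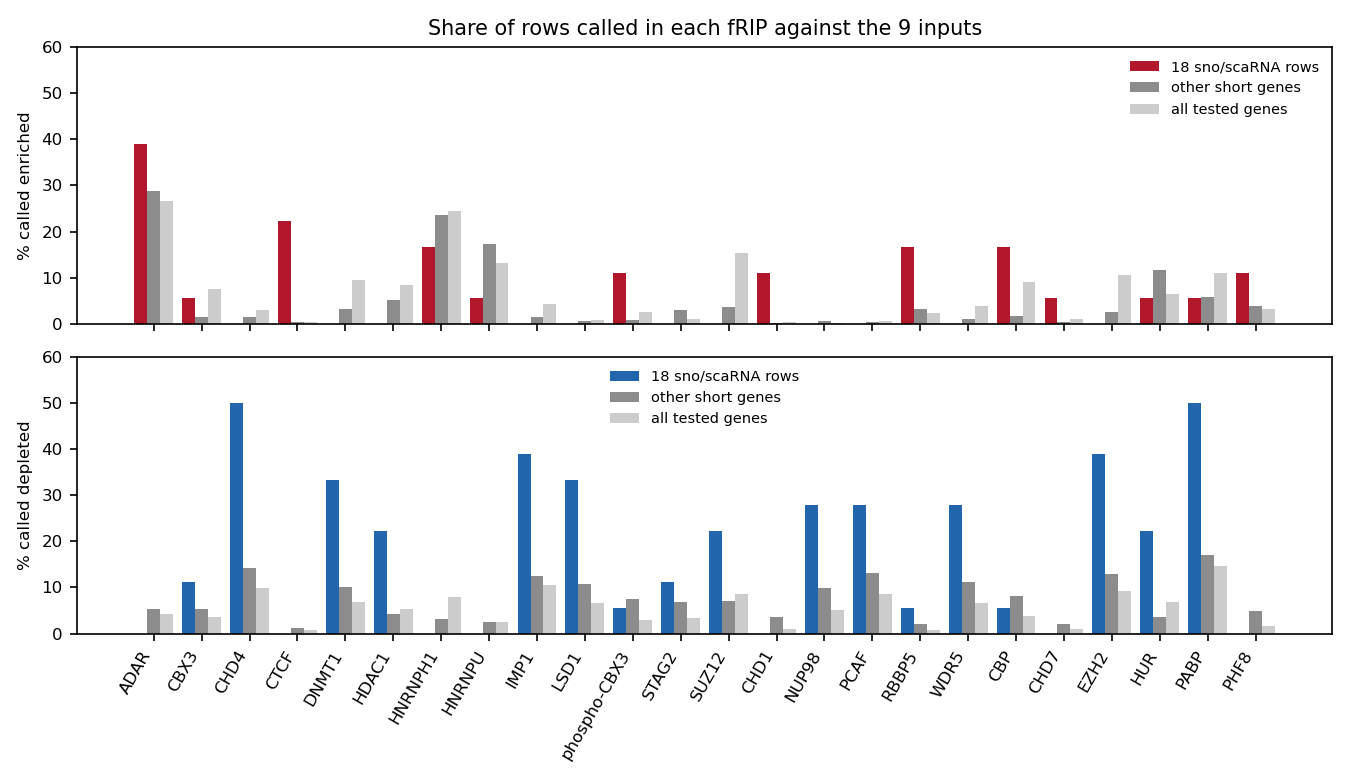
Percent of pairs of a row and a fRIP that were called enriched (top) or depleted (bottom) against the 9 inputs, by fRIP, for the 18 rows, for other genes of at most 300 bases and for all tested genes. CHD4 and PABP fRIP show the highest shares of depleted rows against all inputs, 9 of 18 each, and ADAR enriched 7 of 18, of which 3 entered through fRIP libraries alone.

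By target, ADAR fRIP held 7 enriched rows of 18, where 26.6% of all genes were enriched. Of these 7, SNORA70D, SNORA40 and SNORD3C entered through fRIP libraries alone, and of the 13 rows that entered through the inputs ADAR and CTCF enriched 4 each. CTCF enriched 0.424% of all genes, but its 4 calls were all lost without replicate 1, and 2 were made against the matched set (0.401% of all genes). There were 3 each with CBP (9.08% of all genes), HNRNPH1 (24.5%) and RBBP5 (2.28%), and 2 each with CHD1 (0.424%), PHF8 (3.18%) and phospho-CBX3 (2.58%). The counts of CBP and phospho-CBX3 each include SNORD56, which also entered through fRIP libraries alone, and are 2 and 1 without it. CBX3 (7.45%), CHD7 (0.99%), HNRNPU (13.1%), HUR (6.42%) and PABP (11.1%) held 1 each, and that of PABP was lost without replicate 1 or replicate 3. With the matched sets as reference the counts became 1 for CBP (9.1% of all genes enriched there) and phospho-CBX3 (1.23%) and 5 for HNRNPH1 (19.8%). They became 1 for STAG2 (1.05%) and 0 for CHD7 (1.49%) and HNRNPU (8.21%). The other 11 fRIPs held 0: CHD4 (2.91% of all genes), DNMT1 (9.56%), EZH2 (10.5%), HDAC1 (8.42%), IMP1 (4.23%), LSD1 (0.814%), NUP98 (0.263%), PCAF (0.515%), STAG2 (0.979%), SUZ12 (15.3%) and WDR5 (3.9%). For ADAR and HNRNPH1 the share of all genes called was itself large, whereas CTCF and CHD1 called few genes of any kind.

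Depleted rows were most frequent with CHD4, the remodeler of the NuRD complex, and with PABP, which binds poly(A) tails, at 9 of 18 each, where 9.79% and 14.7% of all genes were depleted. This lead was not seen against the matched sets, with 6 rows each for CHD4, PABP, DNMT1, EZH2 and IMP1. There 14.5%, 12%, 10%, 7.67% and 13.8% of all genes were depleted, in the same order. Against all inputs EZH2 (9.13% of all genes) and IMP1 (10.5%) had 7 each and DNMT1 (6.88%) and LSD1 (6.66%) 6 each. NUP98 (5.11%), PCAF (8.54%) and WDR5 (6.71%) had 5 each. With 1 replicate left out, LSD1 and PCAF each lost up to 3 of these calls, and CHD4, PABP, IMP1, NUP98 and WDR5 up to 2. EZH2 was down to 1 library in such fits, and some of its calls were lost as well. HDAC1 (5.35%), HUR (6.93%) and SUZ12 (8.6%) had 4 each, CBX3 (3.65%) and STAG2 (3.36%) 2 each (both of CBX3 and 1 of STAG2 lost with a replicate left out), and CBP (3.78%), phospho-CBX3 (2.91%) and RBBP5 (0.731%) 1 each, which for CBP and RBBP5 was SNORA58 and was lost without replicate 2. The 7 fRIPs with 0 were ADAR (4.31%), CHD1 (1%), CHD7 (0.896%), CTCF (0.79%), HNRNPH1 (7.9%), HNRNPU (2.52%) and PHF8 (1.71%). The median log2 difference of the 18 rows was -1.22 with CHD4, -1.07 with IMP1, -0.99 with PABP and -0.95 with EZH2, and 1.26 with ADAR. The RNA-binding proteins gave 13 enriched and 20 depleted pairs of 108 (12% and 18.5%, against 14.3% and 7.8% of pairs over all genes), and the chromatin-associated proteins 18 and 58 of 324 (5.56% and 17.9%, against 4.42% and 4.76%). Of the enriched pairs, 10 and 16 were of rows that entered through the inputs. When each library was centred on its own median, all differences of a fRIP moved together, by -0.98 for ADAR, -0.74 for HNRNPH1, -0.59 for HNRNPU, 0.61 for PCAF and from -0.29 to 0.49 for the others, and 21 of the 109 calls were lost.

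**Figure D2:**
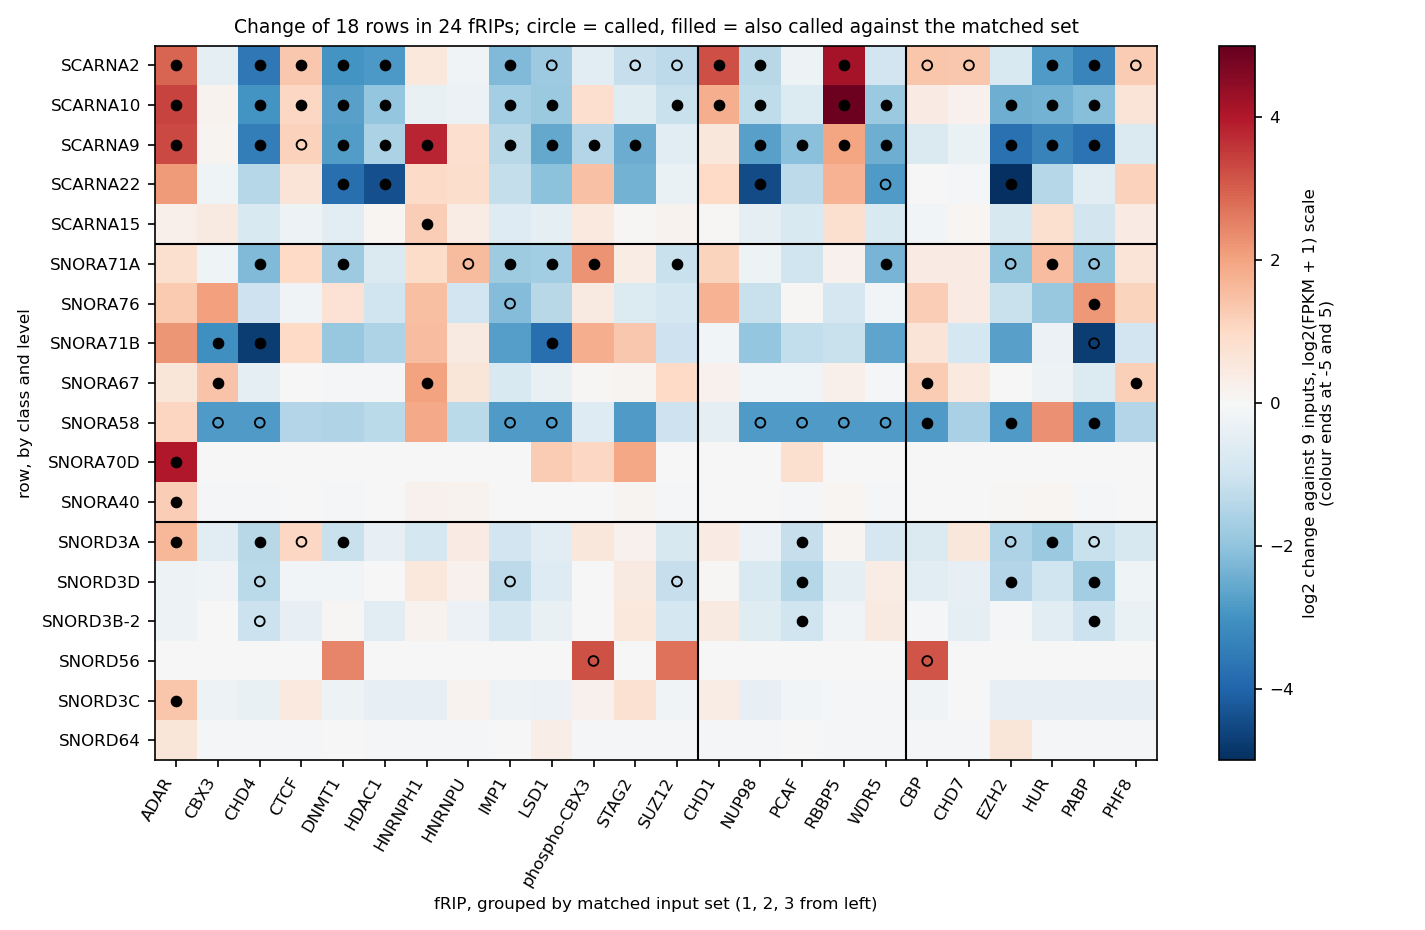
Log2 difference in FPKM + 1 between each fRIP and the 9 inputs (colour, from -5 to 5) for the 18 rows by 24 targets. A circle marks a called pair, and a filled circle one that was also called against the matched input set. The rows of SCARNA2, SCARNA9 and SCARNA10 hold 49 of the 109 calls.

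SCARNA2 guides methylation of the U2 snRNA and was the most abundant of the 18 rows. In the 9 inputs it ranged from 246.9 to 1006 FPKM with a median of 840.3. It was called enriched in 7 fRIPs and depleted in 10. In RBBP5 fRIP its 3 libraries stood at 10430, 9528 and 11540 FPKM, in CHD1 fRIP at 7042, 5693 and 4054, and in ADAR fRIP at 6025, 4216 and 3473. Every one of these 9 libraries lay above every input. RBBP5 is a core subunit of the MLL and SET1 histone methyltransferases, CHD1 a remodeler that reads methylated H3K4, and ADAR an adenosine deaminase that edits double-stranded RNA. The log2 differences were 4.15 ± 0.27 (SE, adjusted p = 9.99e-18), 3.21 ± 0.27 (adjusted p = 3.20e-13) and 2.92 ± 0.27 (adjusted p = 2.72e-14), and against the matched sets 3.68, 2.74 and 4.04. An exact two-sided permutation test of the 3 libraries against the 9 inputs gave p = 0.00455 for each, the smallest it can give. RBBP5 stood above CHD1 by 0.94 ± 0.34 (adjusted p = 0.0308), which was under the 2-fold needed for a call. The difference between CHD1 and ADAR did not pass the test (0.29, adjusted p = 0.478), and ADAR stood above CBP, the next in order, by 1.54 (adjusted p = 7.17e-05).

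The other 4 enriched fRIPs of SCARNA2 were CBP, CHD7, CTCF and PHF8, at 1136 to 1800 FPKM per library and log2 differences of 1.26 to 1.38. These 4 depended on the inputs chosen. For CBP, CHD7 and PHF8 the matched set was set 3, where SCARNA2 was highest, and the differences from it were 0.73, 0.70 and 0.61. For CTCF the matched set was set 1, and the difference was 2.47 (adjusted p = 9.12e-12). The CTCF call against all inputs was lost without replicate 1 (1.22, adjusted p = 0.0554). HNRNPH1, at 792.2 to 891.9 FPKM, was not called against all inputs (0.53) but was against set 1 (1.65, adjusted p = 6.26e-09). At the low end, SCARNA2 stood at 40.9, 43.8 and 61.4 FPKM with CHD4, at 55.0 to 63.4 with PABP, at 64.6 to 91.6 with DNMT1, at 74.6 to 97.3 with HUR and at 76.8 to 82.7 with HDAC1. All of these were below the lowest input. The log2 differences were -3.59 ± 0.27 for CHD4 (adjusted p = 2.96e-16) and -3.31 ± 0.27 for PABP (adjusted p = 6.52e-16), and from -2.98 to -2.82 for the other 3. IMP1 and LSD1 were also below all inputs, while NUP98, STAG2 and SUZ12 overlapped them. Against set 1 the differences for LSD1 (-0.70), STAG2 (-0.05) and SUZ12 (-0.19) were no longer calls. Without replicate 1, which left 1 STAG2 library, the STAG2 difference from all inputs was -0.83, under 2-fold. EZH2 (-1.43, adjusted p = 3.75e-06) and WDR5 (-1.42, adjusted p = 9.96e-07) were depleted of SCARNA2 against their matched sets.

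SCARNA10, known as U85, guides both kinds of modification on the U5 snRNA. Its inputs ranged from 81.4 to 136.2 FPKM with a median of 98.9, and since they were alike in the 3 sets its calls were the same 15 against all inputs and against the matched sets: 4 enriched and 11 depleted. With RBBP5 it stood at 2844, 3214 and 3060 FPKM, 29.5 times the input mean. With ADAR it stood at 1788, 1039 and 662.5 FPKM, with CHD1 at 411, 390.3 and 300.6, and with CTCF, the insulator protein, at 293.1, 207.7 and 147.7. All 12 libraries were above all 9 inputs. The log2 differences were 4.89 ± 0.27 for RBBP5 (adjusted p = 2.10e-21), 3.39 ± 0.27 for ADAR (adjusted p = 3.09e-17), 1.83 ± 0.27 for CHD1 (adjusted p = 1.44e-06) and 1.03 ± 0.27 for CTCF (adjusted p = 0.00475). RBBP5 stood above ADAR by 1.50 (adjusted p = 8.74e-05) and ADAR above CHD1 by 1.55 (adjusted p = 4.63e-05), whereas the difference between CHD1 and CTCF did not pass the test (0.80, adjusted p = 0.151). The CTCF difference fell to 0.78 (adjusted p = 0.131) without fRIP replicate 1 and was 1.03 (adjusted p = 0.057) without fRIP replicate 2. It came to 0.99 without replicate 2 of input set 1. In the shallow ADAR libraries SCARNA10 rested on 138 to 321 fragments and SCARNA9 on 238 to 385, and what part the depth had in the ADAR values was not tested.

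The 11 fRIPs depleted of SCARNA10 were CHD4, DNMT1, EZH2, HDAC1, HUR, IMP1, LSD1, NUP98, PABP, SUZ12 and WDR5, and in each of them every library was below every input. The lowest were CHD4, at 13.8, 8.19 and 14.8 FPKM (-2.99 ± 0.27, adjusted p = 6.99e-14), and DNMT1, at 13.7, 12.4 and 18.04 (-2.72 ± 0.27). WDR5, at 30.6, 22.4 and 30.7 FPKM, was lower than input by 1.84 on the log2 scale. This is the opposite direction to RBBP5, with which WDR5 shares the MLL and SET1 complexes. The smallest of these differences was that of SUZ12 (-1.11), which fell short of 2-fold without replicate 2 (-0.90). In CHD7 and PHF8 fRIP, replicate 3 stood apart from the others in SCARNA10, at 232.7 FPKM against 93.2 and 74.7 with CHD7 and at 299.9 against 101.3 and 127.3 with PHF8.

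**Figure D3:**
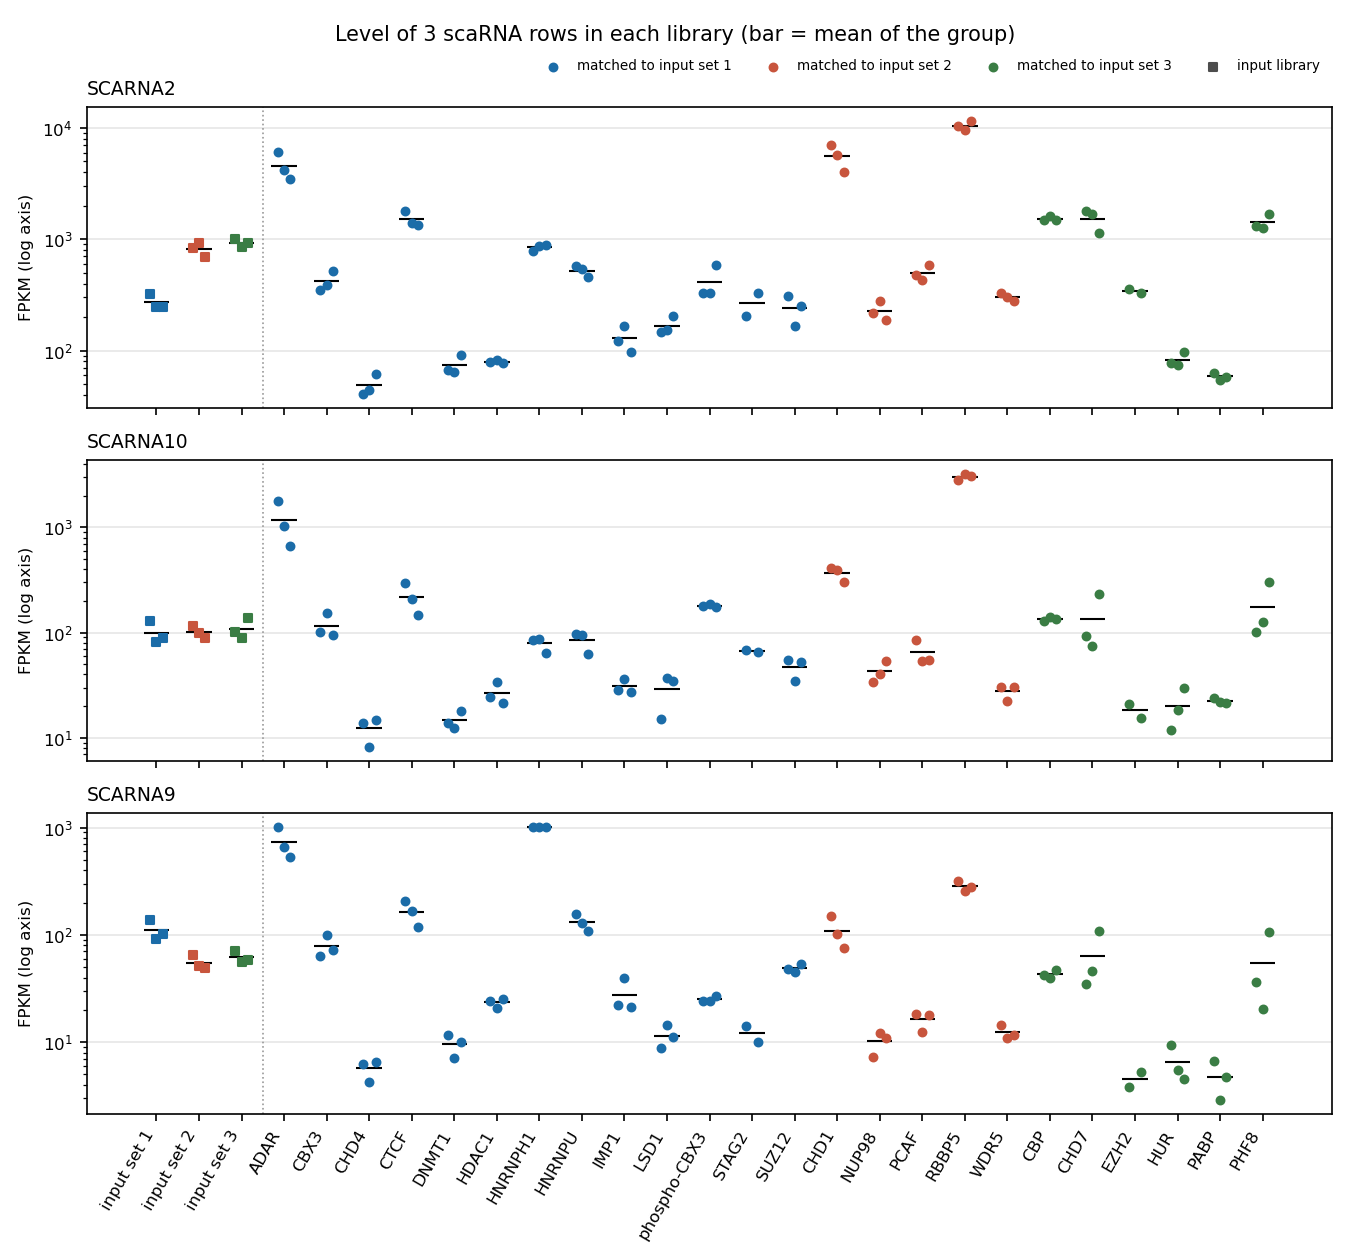
FPKM (log axis) of SCARNA2, SCARNA10 and SCARNA9 in each library, with inputs as squares and fRIP libraries as circles, coloured by the matched input set, and a bar at each mean. RBBP5, CHD1 and ADAR stand highest for SCARNA2, RBBP5 and ADAR for SCARNA10, and HNRNPH1 and ADAR for SCARNA9, while CHD4 and PABP stand below the inputs in all 3.

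SCARNA9, which also guides methylation of U2, ranged from 48.6 to 137.1 FPKM in the inputs with a median of 64.2. It was called enriched in 4 fRIPs and depleted in 13. HNRNPH1, a splicing regulator that binds G-rich RNA, recovered it at 1008, 1013 and 1009 FPKM (3.81 ± 0.29, adjusted p = 9.47e-18), and ADAR at 1008, 659 and 537.2 (3.30 ± 0.29, adjusted p = 1.53e-15). The difference between these 2 fRIPs did not pass the test (0.51, adjusted p = 0.212). RBBP5 came next at 319.9, 255.2 and 282.2 FPKM (1.98 ± 0.29, adjusted p = 3.00e-07), below ADAR by 1.31 (adjusted p = 0.00121). CTCF, at 208.3, 168.4 and 118.3 FPKM, overlapped the inputs (1.16 ± 0.29, adjusted p = 0.00285), was not called against set 1 (0.57, adjusted p = 0.310), and lost its call without replicate 1 (0.98, adjusted p = 0.109). CHD1, which enriched SCARNA2 and SCARNA10, was not called for SCARNA9.

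The lowest levels of SCARNA9 were 6.71, 2.89 and 4.69 FPKM with PABP (-3.70 ± 0.29, adjusted p = 5.00e-17) and 3.81 and 5.22 with EZH2 (-3.72 ± 0.34, adjusted p = 2.41e-14). CHD4 followed at -3.45 and HUR, which binds AU-rich elements in mRNAs, at -3.32. The other 9 depleted fRIPs were DNMT1, HDAC1, IMP1, LSD1, NUP98, PCAF, phospho-CBX3, STAG2 and WDR5, with differences from -2.79 to -1.39. In all 13 the libraries lay below every input, and all 13 calls were also made against the matched sets, and SUZ12 was depleted there as well. The HNRNPH1 libraries that were high in SCARNA9 held SCARNA10 at 85.3, 86.5 and 64.5 FPKM (-0.37, adjusted p = 0.226), and the difference between the 2 rows was not tested.

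The 3 scaRNAs were all enriched in 3 fRIPs (ADAR, CTCF and RBBP5) and all depleted in 8 (CHD4, DNMT1, HDAC1, HUR, IMP1, LSD1, NUP98 and PABP). Without replicate 1 all 3 CTCF calls were lost. With matched inputs the 3 were all enriched in 2 fRIPs (ADAR and RBBP5) and all depleted in 9, where LSD1 no longer counted and EZH2 and WDR5 were added. Among the 6 RNA-binding proteins, SCARNA2 was enriched in 1 and depleted in 3, SCARNA9 in 2 and 3, and SCARNA10 in 1 and 3 (14.3% and 7.8% of pairs over all genes), and against the matched sets SCARNA2 was enriched in 2 and the other counts stayed as they were. Among the 18 chromatin-associated proteins the counts were 6 and 7, 2 and 10, and 3 and 8, and against the matched sets 3 and 6, 1 and 11, and 3 and 8 (4.42% and 4.76% of pairs over all genes against all inputs). With each input library, or each fRIP replicate number over all proteins, left out in turn, 44 of the 49 calls of these 3 rows remained. Under each alternative tried, 36 remained. With each library centred, SCARNA9 with IMP1 (-0.93) and SCARNA2 (-0.97) and SCARNA10 (-0.84) with NUP98 fell short of 2-fold.

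**Figure D4:**
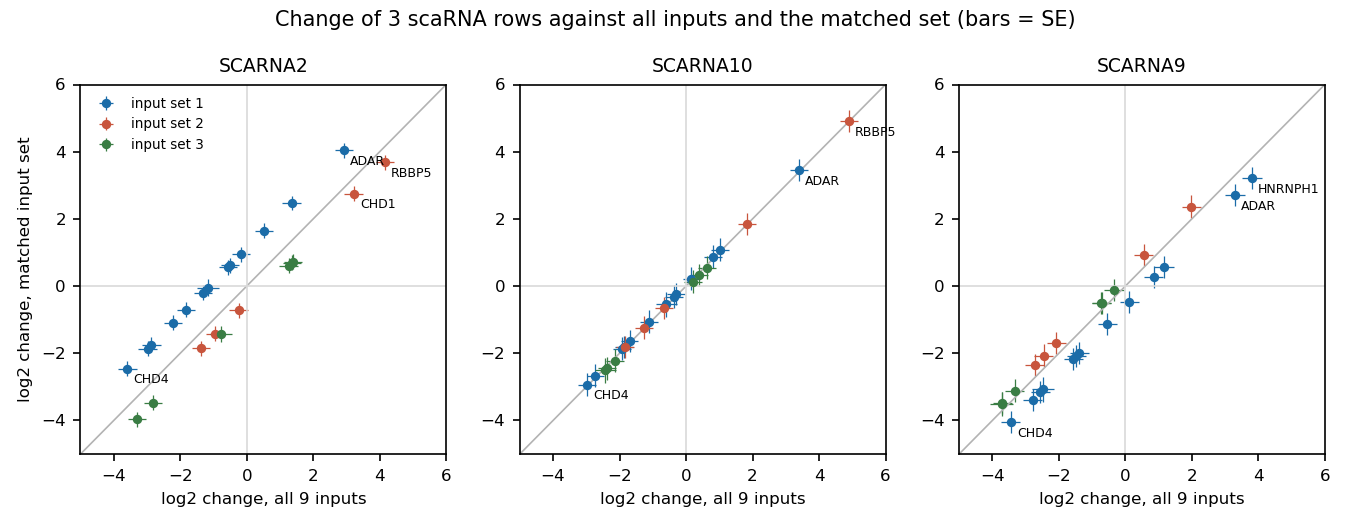
Log2 difference of each fRIP from all 9 inputs (horizontal) and from its matched input set (vertical) for SCARNA2, SCARNA10 and SCARNA9, with bars of 1 SE. SCARNA10 lies along the diagonal, whereas SCARNA2 and SCARNA9 shift by input set: for SCARNA2, ADAR moves from 2.92 to 4.04 and STAG2 from -1.17 to -0.05.

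The other 2 SCARNA rows gave fewer calls. SCARNA22, an H/ACA RNA, was depleted with DNMT1, EZH2, HDAC1, NUP98 and WDR5. It stood at 20.6 to 191 FPKM in the inputs, at 0 in both EZH2 libraries and in 2 of 3 libraries of HDAC1 and NUP98, and at 16.5, 4.58 and 0 with DNMT1. With about 18.9 FPKM for 1 fragment at the median depth, these are differences of a few fragments. The NUP98 call was lost without replicate 2 (-3.70, adjusted p = 0.0791). The WDR5 call was lost against the matched set (adjusted p = 0.119) and without replicate 1 (-1.27, adjusted p = 0.497). The retained intron listed as SCARNA15 stood at 0.565 to 1.285 FPKM in the inputs and at 4.35, 2.73 and 3.62 with HNRNPH1 (1.24 ± 0.13, adjusted p = 4.76e-13), its single call, which was lost with each library centred (0.51). It was low with PABP, at 0.0123 to 0.0245 FPKM, though the difference on the scale used (-0.91) was under 2-fold. All its HNRNPH1 libraries were above, and all its PABP libraries below, every input.

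SNORA71A was the most abundant of the SNORA rows. Its inputs ranged from 24.8 to 231.3 FPKM with a median of 156.3. The lowest input, replicate 3 of set 3, stood apart from the other 8, which lay between 128.3 and 231.3. The row was enriched with phospho-CBX3 (the phosphorylated form of the heterochromatin protein HP1γ) at 491.8, 613.5 and 983.3 FPKM (2.26 ± 0.43, adjusted p = 4.00e-05), with HNRNPU, a nuclear matrix protein, at 422.4, 360.4 and 480.5 (1.59 ± 0.43, adjusted p = 0.00196) and with HUR at 467.8, 296.4 and 477.7 (1.54 ± 0.43, adjusted p = 0.0028). All 9 libraries were above all inputs. Against the matched sets phospho-CBX3 (1.84) and HUR (2.38) were called and HNRNPU (1.17, adjusted p = 0.0812) was not, and PHF8 was added (1.50, adjusted p = 0.0253). It was depleted in 8 fRIPs (CHD4, DNMT1, EZH2, IMP1, LSD1, PABP, SUZ12 and WDR5), led by WDR5 at 16.6, 27.2 and 42.9 FPKM (-2.32 ± 0.43, adjusted p = 1.34e-05) and CHD4 at 29.3, 17.4 and 46.8 (-2.23 ± 0.43, adjusted p = 2.39e-05). None of these 8 was below every input, because of the low library of set 3. Against the matched sets the EZH2 (-1.17, adjusted p = 0.103) and PABP (-1.16, adjusted p = 0.0555) calls were lost, and PCAF was added (-1.44, adjusted p = 0.0346). The SUZ12 call was lost without replicate 3 (-0.67, adjusted p = 0.320) or replicate 1 (-1.29, adjusted p = 0.0541), and the LSD1 call without replicate 1 (-1.45, adjusted p = 0.0549). Without replicate 2, which left 1 EZH2 library, the EZH2 difference was -1.32 and was no longer a call.

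The long noncoding RNA listed as SNORA67 was enriched in 4 fRIPs. It ranged from 1.02 to 2.16 FPKM in the inputs and stood at 9.95, 7.71 and 9.51 with HNRNPH1 (2.00 ± 0.17, adjusted p = 1.74e-15), at 6.29, 5.83 and 4.86 with CBX3 (1.41 ± 0.17), at 5.14, 4.81 and 5.23 with CBP (1.28 ± 0.17) and at 5.23, 5.04 and 3.90 with PHF8 (1.19 ± 0.17). CBX3 is the heterochromatin protein HP1γ, CBP a histone acetyltransferase and PHF8 a histone demethylase. Each of these libraries was above all inputs, each of the 4 calls was also made against the matched set, and the row was depleted in 0 fRIPs. The PHF8 call fell just short of 2-fold with each library centred (0.97) and against input set 1 alone.

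**Figure D5:**
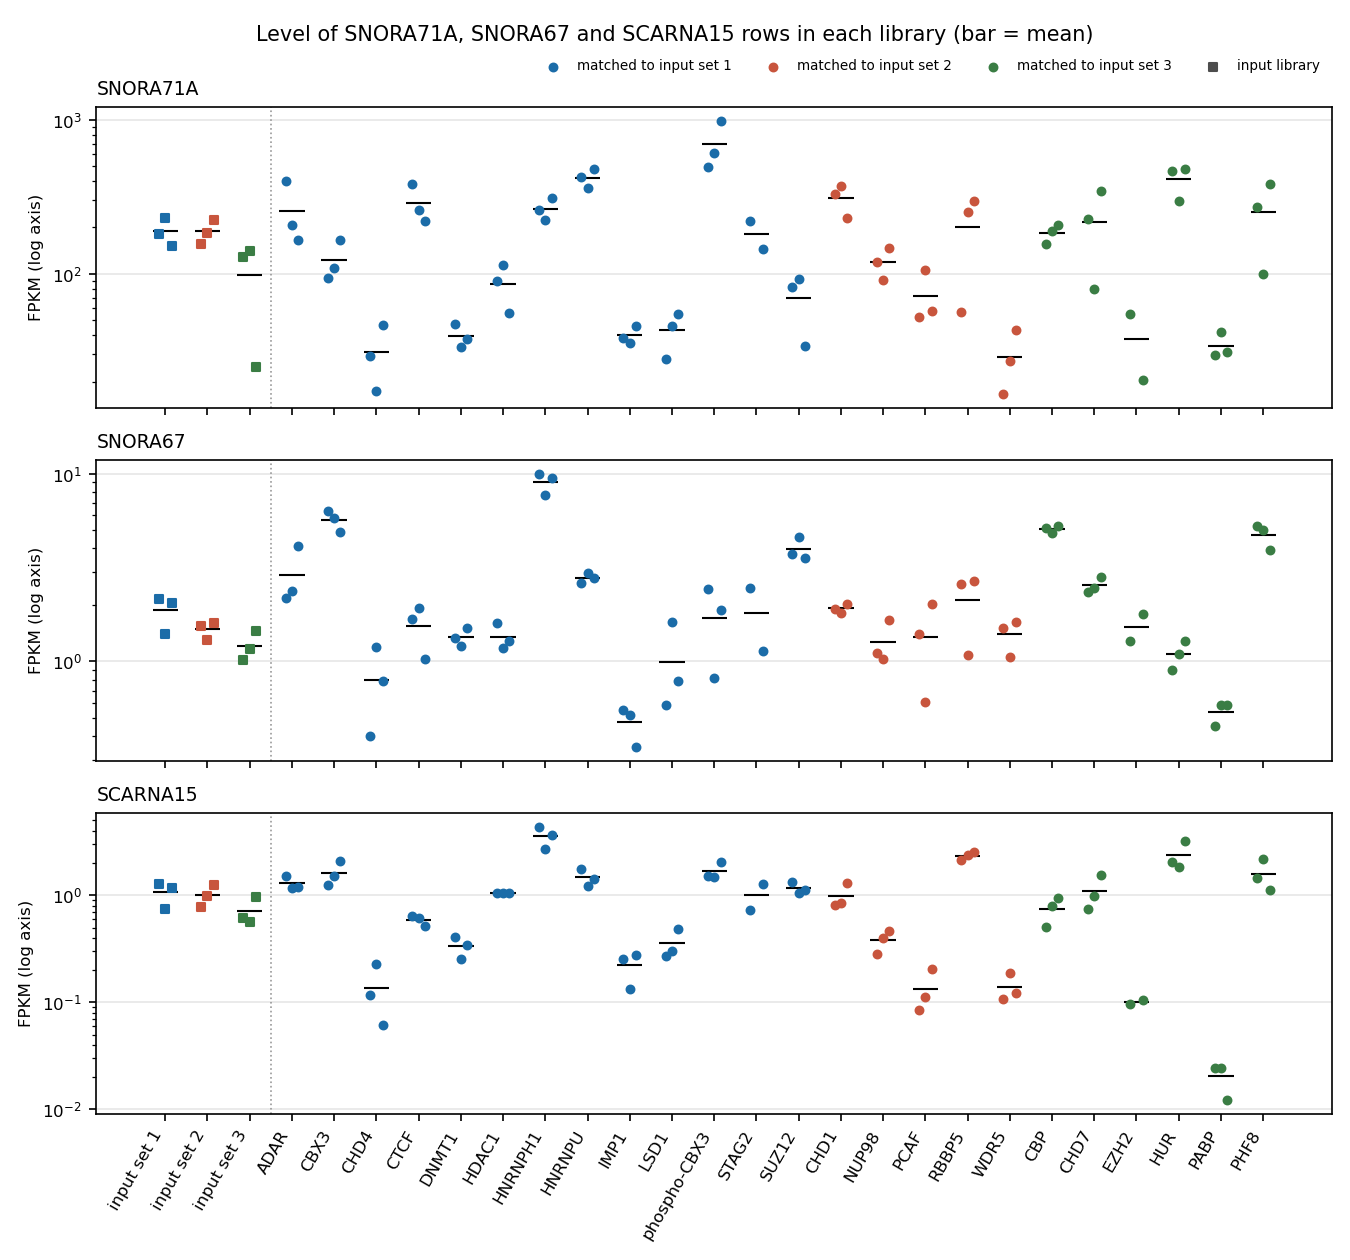
FPKM (log axis) of SNORA71A, SNORA67 and SCARNA15 in each library, drawn as for the 3 scaRNAs. SNORA71A is highest with phospho-CBX3, and SNORA67 and SCARNA15 are highest with HNRNPH1; 1 input library of set 3 stands low for SNORA71A at 24.8 FPKM.

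Of the other SNORA rows, SNORA71B, SNORA58, SNORA70D and SNORA40 rested on few fragments. SNORA71B, at 0 to 102.3 FPKM in the inputs, was depleted with CHD4 and PABP, where all 3 libraries of each were at 0, with LSD1 and with CBX3, and its 272 bases lie in SNHG17 like SNORA71A. Against the matched sets the PABP call was lost (-3.22, adjusted p = 0.0772) and IMP1 was added (-4.37, adjusted p = 0.0143). The LSD1 call was lost without fRIP replicate 1 (-3.3, adjusted p = 0.122), and the CBX3 call without fRIP replicate 3 (-2.23, adjusted p = 0.282) and without several single inputs. SNORA58 was called depleted in 11 fRIPs, in all of which its libraries were at 0, from inputs of 0 to 22.3 FPKM. This is about 1 fragment per input library. Against the matched sets 3 of these calls were made, and without replicate 2 all 11 were lost (adjusted p = 0.0528 to 0.216). SNORA70D was at 0 in all inputs and at 67.1, 60.9 and 0 FPKM with ADAR, where 1 fragment in those shallow libraries makes up such a value. The SNORA40 row was at 1.75, 1.25 and 1.29 FPKM with ADAR, the 3 libraries through which it entered, and at 0.171 or less in the inputs (a log2 difference of 1.21, or 0.23 with each library centred). The SNORA76 row, which is SNHG25, was higher with PABP, at 110.5, 69.0 and 165.3 FPKM (2.18 ± 0.89, adjusted p = 0.0332), and lower with IMP1, at 3.55, 4.02 and 5.84 (-2.16 ± 0.89, adjusted p = 0.0427), than in the inputs at 12.2 to 78.1. The row sums 2 isoforms: that of 108 bases was at 57.5 to 146.9 FPKM with PABP and under 0.01 in 6 of 9 inputs and in all IMP1 libraries, while that of 311 bases was at 11.5 to 18.4 with PABP, 3.55 to 5.84 with IMP1 and 9.85 to 17.8 in the inputs. The isoforms were not tested apart. In the whole row, the PABP libraries overlapped the inputs. The PABP call was lost without replicate 1 (2.16, adjusted p = 0.0961) or replicate 3 (1.87, adjusted p = 0.0801), and the IMP1 call without replicate 1 (-2.04, adjusted p = 0.144).

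Among the SNORD rows, the U3 rows carried nearly all fragments. Because the copies share most of their sequence, their FPKM were also added up. The sum of SNORD3A, SNORD3B-2, SNORD3C and SNORD3D was 4.11 to 12.5 FPKM in the inputs (8.01 ± 2.72, SD, n = 9), 13.9 to 21.1 with ADAR, 0.661 to 1.79 with CHD4, 0.678 to 1.97 with PABP, 1.44 to 1.81 with PCAF, 1.70 to 2.12 with IMP1, 0.765 to 2.52 with HUR, 1.79 to 2.56 with EZH2 and 1.82 to 3.47 with SUZ12. The ADAR libraries thus lay above, and those of the other 7 below, the range of the inputs, while CHD7 spread from 5.74 to 25.2. By copy, SNORD3A was at 1.21 to 4.28 FPKM in the inputs, at 13.2, 13.5 and 7.38 with ADAR (1.66 ± 0.36, adjusted p = 7.32e-05) and at 8.42, 7.45 and 4.74 with CTCF (1.02 ± 0.36, adjusted p = 0.0494). The ADAR call was lost with each library centred (0.68, adjusted p = 0.0685). The CTCF call was not made against the matched set (0.78, adjusted p = 0.281) and was lost without replicate 1 (0.87, adjusted p = 0.326). SNORD3A was depleted with CHD4, DNMT1, EZH2, HUR, PABP and PCAF, SNORD3D with CHD4, EZH2, IMP1, PABP, PCAF and SUZ12, and SNORD3B-2 with CHD4, PABP and PCAF. CHD4, PABP and PCAF, a histone acetyltransferase, were called for all 3 of these copies, at log2 differences from -1.75 to -1.005. Of the 15 depleted calls of these copies, 7 were lost with 1 replicate left out: those of DNMT1, EZH2, PABP and PCAF for SNORD3A, of CHD4 and PCAF for SNORD3B-2 and of EZH2 for SNORD3D. With each library centred 9 of the 15 were lost, among them 8 of the 9 of CHD4, PABP and PCAF (-0.995 to -0.39), and against the matched sets 6 were lost, among them those of CHD4 for SNORD3B-2 and SNORD3D and of PABP for SNORD3A. In CHD7 fRIP, SNORD3A stood at 1.88, 1.56 and 23.9 FPKM, the last being the replicate 3 that was also high for SCARNA10.

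The remaining SNORD rows gave 3 calls. SNORD3C was enriched with ADAR at 2.41, 5.08 and 1.05 FPKM against 0 to 0.539 in the inputs (a log2 difference of 1.39, or 0.42 with each library centred and 0.99 without replicate 2). It too entered through fRIP libraries alone. SNORD56 was called enriched with CBP and phospho-CBX3 because of 1 library each, at 684.2 and 742.9 FPKM, with all other libraries of both fRIPs and all inputs at 0. At the median depth 1 fragment of this short row equals about 489 FPKM, and neither call was made against the matched sets. SNORD64 was called in 0 fRIPs and was 0 in 7 of 9 inputs.

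RBBP5 and WDR5 are subunits of the same methyltransferase complexes and shared input set 2, so their fRIPs were also compared directly. Of the 18 rows, 6 were higher with RBBP5 (12.9% of all genes were) and 0 were lower (5.17%). The 6 were SCARNA10 (6.73 ± 0.33 on the log2 scale, adjusted p = 2.89e-24), SCARNA2 (5.11 ± 0.34, adjusted p = 9.39e-19), SCARNA9 (4.43 ± 0.35, adjusted p = 8.80e-16), SCARNA22, SNORA71A and SCARNA15, that is, all 5 SCARNA rows and 1 SNORA row. In FPKM, SCARNA10 had means of 3039 with RBBP5 and 27.9 with WDR5, and SCARNA9 of 285.8 and 12.3. The U3 copies did not pass the test, with differences from -0.81 (SNORD3D) to 0.98 (SNORD3A).

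SUZ12 and EZH2 are subunits of PRC2, and their fRIPs were matched to input sets 1 and 3. With SUZ12, 3 rows were higher than with EZH2 (18.5% of all genes were) and 0 were lower (13.1%): SCARNA9 by 3.18 ± 0.39 (adjusted p = 3.98e-10), SCARNA10 by 1.31 ± 0.37 (adjusted p = 0.00212) and SCARNA22 by 5.65 ± 1.53 (adjusted p = 0.00151). With each fRIP set against its own inputs first, the differences were 2.37, 1.45 and 5.06, and that of SCARNA22 no longer passed (adjusted p = 0.0549). Phospho-CBX3 and CBX3 are the same protein with and without selection for a phosphorylated site. With phospho-CBX3, SNORA71A (2.48 ± 0.53, adjusted p = 0.000713) and SNORA71B (4.90 ± 1.52, adjusted p = 0.0246) were higher, where 0.33% of all genes were, and SCARNA9 (-1.59 ± 0.35, adjusted p = 0.00112) and SNORA67 (-1.34 ± 0.21, adjusted p = 7.43e-06) lower, where 2.4% were. The mean of SNORA71A was 696.2 FPKM with phospho-CBX3, and the CBX3 libraries stood at 94.0, 108.7 and 164.9.

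The host genes were compared with the rows inside them, by their own fold changes in the same fRIPs. For SCARNA10, called in 15 fRIPs, the host NCAPD2 (a condensin subunit) was called in 2, CBP (1.10) and SUZ12 (1.04), and the single fRIP that called both gave opposite directions. In RBBP5 fRIP, NCAPD2 differed from input by 0.01. For SCARNA9, called in 17 fRIPs, KIAA1731 was called in 6, of which 2 had the same direction and 3 were opposite; KIAA1731 stood at -0.60 with HNRNPH1, where SCARNA9 was highest, and at 3.12 with STAG2, where SCARNA9 was depleted. For SCARNA22, called in 5 fRIPs, WHSC1 was called in 5, and the 2 they shared went in opposite directions. SNORA71B shared 1 of its 4 calls with SNHG17, in the same direction, SSH1 stood at 1.24 with ADAR, the fRIP through which the SNORA40 row entered, and SNORD64 and its host SNHG14 were called in 0 fRIPs. For SNORA71A, called in 11 fRIPs, SNHG17 was called in 6, and 5 of these were called for both in the same direction, with SNHG17 at 1.45 with HUR, 1.17 with phospho-CBX3, 1.01 with HNRNPU, -1.41 with IMP1 and -1.33 with LSD1. In other fRIPs the values lay apart, at -2.23 for SNORA71A and -0.04 for SNHG17 with CHD4, -1.81 and 0.31 with DNMT1 and -2.01 and 0.37 with PABP. As all stretches of SNORA71A occur in SNHG17 and all of SCARNA22 in its host, how the counting divided the reads of these pairs is uncertain.

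The proteins of snoRNPs are made from mRNAs that were measured in the same libraries. Over a list of 21 genes (box C/D and H/ACA core proteins, assembly factors, and Cajal body or cap proteins) 28 pairs of a gene and a fRIP were enriched and 47 depleted of 504, or 5.56% and 9.33%, against 6.90% and 5.52% over all genes. The 4 core proteins of box C/D snoRNPs gave 8 and 14 of 96 pairs, the 4 of H/ACA snoRNPs 6 and 17, the 9 assembly factors 10 and 14 of 216, and the 4 Cajal body or cap proteins 4 and 2 of 96. PABP enriched 7 of the 21 mRNAs (11.1% of all genes), among them the H/ACA proteins NOP10 (2.62) and NHP2 (2.14), the C/D and U4 protein NHP2L1 (1.78) and FBL (1.37), in the same libraries in which 9 of the 18 RNA rows were depleted. SUZ12 enriched 6 (15.3% of all genes), including NOP56 (1.65), NOP58 (1.62) and DKC1 (1.24), and depleted 5 (8.6%), including NOP10 (-2.15), NHP2L1 (-2.12) and FBL (-1.77). HUR depleted 7 (6.93% of all genes) and enriched 0 (6.42%). RBBP5, CHD1, CHD7, CTCF, NUP98 and WDR5 gave 0 calls on this list against all inputs. In the same order, 2.28%, 0.424%, 0.99%, 0.424%, 0.263% and 3.9% of all genes were enriched. Of all genes 0.731%, 1%, 0.896%, 0.79%, 5.11% and 6.71% were depleted. Against the matched sets FBL was depleted with WDR5 (-1.03, adjusted p = 0.00284) and NHP2L1 with CHD7 (-1.001, adjusted p = 0.00411).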

How the data were processed

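RNA of 70 fRIP libraries against 24 proteins and of 9 inputs from K562 cells was sequenced by the authors on a HiSeq 2500 after removal of ribosomal RNA. Reads were aligned to hg19 with TopHat and GENCODE v18 genes were quantified with Cuffdiff 2. The submitters' processing notes also name CASAVA 1.4 and Cuffnorm. The deposited gene and isoform tables hold FPKM per library, normalized by the authors for length and library size, and give no read counts. A deposited table of the authors' own comparisons also holds test statistics, p-values and group FPKM. Its results were not used, and only its input FPKM served to find which input set was matched to each protein. As for the strand setting and read filters, these were not given in the sources used here.

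Samples were grouped by their labels. The rows described, the gene lists and the tests were chosen with earlier results of these data known. The filter kept rows that reached 1 FPKM in 2 or more libraries, 1 FPKM was added and the log2 taken. All 79 libraries entered 1 limma fit (version 3.58.1, R 4.3.3, trend option), in which each protein and the inputs together had their own mean. The Benjamini-Hochberg adjustment ran over 25442 rows within each comparison. Fold changes on the log2(FPKM + 1) scale understate those of low rows. Exact permutation tests were two-sided, and their smallest p was 0.00455 for 3 libraries against 9 and 0.0182 for 2 against 9. Tables were handled with pandas 2.3.3 and numpy 2.4.6, and the exact tests went through every split of the libraries. The fit was tested on simulated data.

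A check of whether replicate numbers pair libraries used deviations from the group means. In input set 2 libraries with the same number correlated at a mean of 0.320, and every pair with an input was over 0.1 for 4 of 5 proteins. In sets 1 and 3 the means were 0.116 and 0.0316, and this held for 0 of 13 and 0 of 6 proteins. The 79 libraries held 0 identical pairs of 3081.

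Depth was estimated from the FPKM step of 1 fragment in long single-isoform genes, with an assumed mean fragment of 155 bases. Fragments per row came from the transcript length less 155 bases where that could be used, as for SCARNA2, SCARNA9, SCARNA10 and SNORA67. For most other rows, such as SNORA71A, they came from the lowest step seen. These estimates cover counting error only. Positions and sequences came from GENCODE v44 on GRCh37 by transcript or gene identifier. For 3 rows no sequence was used, and some items are not reported here. Named were the rows of each class with the highest level and the most calls, the most changed row of each fRIP whose libraries did not overlap the inputs, rows at the edge of the filter, rows of known role, hosts and snoRNP genes. Alternatives covered the pseudocount, the filter, centring, the inputs used and a replicate block. Each input library was also left out in turn, as was each fRIP replicate number over all proteins.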

Additional observations from a re-analysis of the deposited data

Results flagged for a closer look

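In 3 of 18 rows, 1 of the 9 inputs stood apart from the others by Dixon's test at the 95% level, which chance gives in about 1 of 20 groups. The test used log2(FPKM + 1), and the values below are in FPKM. Replicate 3 of set 3 was the lowest input for SNORA71A, at 24.75 FPKM against 128.3 for the next, and for SNORA71B, at 0 against 13.0. Replicate 1 of set 1 was the highest for SNORA40, at 0.171 FPKM against 0.0695.

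Direct tests between related targets gave 13 differences in 54 tests of a row: 6 between RBBP5 and WDR5, where 12.9% of all genes were higher and 5.17% lower, 3 between SUZ12 and EZH2 (18.5% and 13.1%) and 4 between phospho-CBX3 and CBX3 (0.33% and 2.4%). Between RBBP5 and WDR5, which shared input set 2, the log2 differences were 6.73 for SCARNA10, 5.11 for SCARNA2, 4.43 for SCARNA9, 4.58 for SCARNA22 (SE 1.37, adjusted p = 0.00544), 2.55 for SNORA71A (SE 0.53, adjusted p = 7.08e-05) and 1.55 for SCARNA15 (SE 0.15, adjusted p = 1.47e-12). SCARNA10 was above all inputs with RBBP5 and below all inputs with WDR5 in 3 of 3 libraries each. Between SUZ12 and EZH2 they were 3.18 for SCARNA9, 1.31 for SCARNA10 and 5.65 for SCARNA22. Between phospho-CBX3 and CBX3 they were 2.48 for SNORA71A, 4.90 for SNORA71B, -1.59 for SCARNA9 and -1.34 for SNORA67. SCARNA22 and SNORA71B rested on few fragments in these comparisons.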

How the results depend on the processing

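Under the 25 alternatives 0 of the 109 calls reversed, and 48 were made under each alternative that tested the row. With each input library, or each fRIP replicate number over all proteins, left out in turn, 73 of the 109 remained. The SCARNA counts (16 enriched, 39 depleted) stayed within 1.5 times under every alternative. The SNORA enriched count of 10 became 6 against input set 1 alone and 18 against set 3 alone, and the depleted count of 24 became 14 against the matched sets, 13 against set 2 alone, 12 against set 3 alone and 8 over the rows with at least 10 fragments. The SNORD enriched count of 5 became 3 with a pseudocount of 0.1 FPKM, with each library centred on its median, against set 3 alone or with only the libraries of the protein and the inputs, 2 without a filter, with a filter on the inputs, against set 2 alone or over the rows with at least 10 fragments, and 8 with no minimum change, and the SNORD depleted count of 15 became 29 with the pseudocount of 0.1. Centring moved the snoRNP mRNA count from 75 to 105. The causes were not tested. Leaving out 1 replicate or input gave 10 to 14 enriched and 12 to 28 depleted SNORA calls, 3 to 6 and 11 to 19 SNORD calls, 13 to 17 and 36 to 42 SCARNA calls, 88 to 113 calls over all rows, 20 to 23 of hosts, 71 to 81 of snoRNP mRNAs and 3243 to 3964 of short genes. A replicate block over all libraries gave 110 calls (108 of the 109 kept) and one within set 2 gave 109 (all kept), so that the block over all libraries lost 1 call and added 2. The limit of 10 fragments was chosen after seeing the data. FPKM tables hold no counts, so for rows of under 10 fragments in the median input the precision is limited by depth.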
